A study of Sus scrofa with 18 samples.

Results

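The authors' table of mRNAs that differed between the HC-L and HC-P muscles of Hechuan black pigs held 522 genes, and 46 of them carried ssc-miR-4331-3p in the field that lists related miRNAs. These 46 genes are described here. Within that table they were chosen by the annotation alone, by an exact match to the miRNA's name after the field had been split at commas. That step used no expression value, but every gene of the table had already been called by the authors from its expression. The field does not state how a miRNA came to be related to a gene, and its name was taken as given. A gene symbol was available for 43 of the 46, from the reference gene name table for 41 and from the deposited description alone for METTL21C and FIZ1. The other 3 are called by their identifiers. The symbol deposited for HAS2 was SHAS2.

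The animals were adult castrated sows of this breed, per the labels, and the same background was shared by every group. Messenger RNA was sequenced from HC-L skeletal muscle and HC-P skeletal muscle, with 3 libraries each. Small RNA was sequenced from exosomes isolated from HC-L muscle, exosomes isolated from HC-P muscle, HC-L muscle tissue and HC-P muscle tissue, again with 3 libraries each. The labels used here give neither the muscle behind the letters L and P nor its fibre type, and they do not state whether the replicates were separate pigs, so p-values measure only the spread between these libraries.

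A microRNA is a short RNA that guides an Argonaute protein to messenger RNAs carrying a partly complementary site, most often in the untranslated region after the coding sequence, and the paired messenger is then degraded or translated less. The bases near the miRNA's front end, the seed, carry most of the pairing, so computer predictions list many genes for each miRNA and many miRNAs for each gene. Exosomes are small membrane vesicles that cells release and that carry miRNAs among other cargo.

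The small RNA libraries held between 3964875 and 9016010 miRNA reads in tissue and between 106040 and 959599 in exosomes. In the mRNA table each value is a normalised read count, that is, reads per gene divided by a factor for the library and not by gene length, so values are compared between libraries and not between genes. The depth of the mRNA libraries is unknown, since the table holds only genes called by the authors. For the same reason the table cannot show the identity of the tissue: 0 of 8 markers of skeletal muscle fibres fixed for the check were among its genes, nor were any of the markers listed for endothelial cells, fibroblasts, leukocytes, red cells or tendon. Of 5 adipocyte markers, 4 were in the table, and they are described below beside ADIPOQ.

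miR-4331-3p itself was counted in every small RNA library, at a handful of reads in tissue. The exosome libraries of HC-L held 27, 30 and 26 of its reads and those of HC-P held 84, 51 and 53, against 4, 3 and 3 reads in HC-L tissue and 2, 1 and 1 reads in HC-P tissue. In TPM, which here is reads scaled to a common total of miRNA reads, HC-L exosomes averaged 60.7 ± 29.5 and HC-L tissue 0.437 ± 0.107 (SD, n = 3 each). HC-P exosomes averaged 297 ± 206 TPM and HC-P tissue 0.269 ± 0.204 TPM (SD, n = 3 each). The exosome libraries therefore stood above the tissue libraries of the same muscle without overlap. edgeR's quasi-likelihood test gave a log2 fold change of exosome over tissue of 5.93 ± 0.66 (SE) in HC-L, with a Benjamini-Hochberg adjusted p of 7.81e-05. In HC-P it was 9.13 ± 0.76 (SE), with an adjusted p of 2.11e-06 by the same test. Of the 252 miRNAs tested, 41 (16.3%) had an edgeR adjusted p under 0.05 in HC-L and 65 (25.8%) in HC-P.

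Between the muscles the picture was less certain. In tissue, where the mRNAs were measured, the log2 fold change of miR-4331-3p in HC-L over HC-P was 1.20 ± 0.68 (SE), with an edgeR adjusted p of 0.555. The pooled tissue reads, 10 in HC-L and 4 in HC-P, gave a ratio of 1.84 with an exact 95% binomial interval of 0.531 to 8.05, which covers counting error only. A difference in tissue was thus not detectable at this depth in either direction. In exosomes the log2 fold change of HC-L over HC-P was -2.0 ± 0.54 (SE), with an adjusted p of 0.289 by edgeR and of 0.0304 by DESeq2, and the adjusted p ran up to 1 over the alternatives tried. The authors' deposited table gives -2.07 for this contrast with an adjusted p of 0.0672. Between the muscles, 0 of 252 miRNAs had an edgeR adjusted p under 0.05, in tissue and in exosomes alike. The lowest HC-P exosome library, at 87.5 TPM, lay below the highest HC-L exosome library, at 94.4 TPM, so these groups overlapped in TPM. With TMM, the library scaling of the edgeR fit, they did not overlap. On that scale the values were 36.9, 48.5 and 48.5 in HC-L exosomes, against 77.1, 216 and 246 in HC-P exosomes. The pooled exosome reads, 83 in HC-L and 188 in HC-P, gave a ratio of 0.345. Its exact 95% binomial interval was 0.263 to 0.448, which again covers counting error only.

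**Figure D1:**
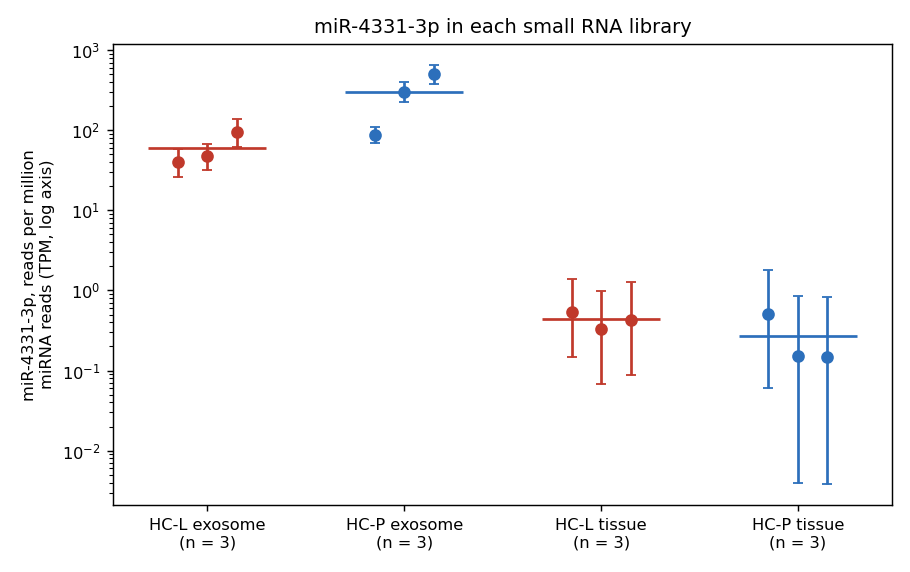
miR-4331-3p in each small RNA library, as TPM (reads scaled to a common total of miRNA reads) on a log axis, for HC-L exosomes, HC-P exosomes, HC-L tissue and HC-P tissue. Points are libraries with exact 95% binomial intervals and horizontal lines are group means. All 6 exosome libraries sit at 40.0 TPM or more, and all 6 tissue libraries sit at 0.546 TPM or less, with intervals that overlap between the muscles.

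Most of the 46 genes were higher in HC-L muscle, and so was most of the table. By the authors' calls 34 of the 46 (73.9%) were higher in HC-L and 12 were lower, against 68.2% higher and 31.8% lower over all 522 genes. Among the 274 genes annotated with other miRNAs only, 191 (69.7%) were higher in HC-L, and among the 202 genes with no related miRNA 131 (64.9%) were. By these shares the direction of the 46 genes was close to the background of the table. Genes measured in the same libraries are not independent draws, so the shares are given as a description. The sign was also not the same for all of them: genes annotated to the same miRNA moved both ways.

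The 3 HC-L values and the 3 HC-P values did not overlap for any of the 46 genes, against 94.4% of genes without overlap in the whole table. Of the 46 genes, 24 (52.2%) had an absolute deposited log2 fold change of at least 2, which is a 4-fold difference, against 40.0% of the table. The median log2 fold change in the authors' deposited table was 2.22 over the 34 higher genes, against 1.89 over the 322 other higher genes. Over the 12 lower genes that median was -1.31, against -1.43 over the 154 other lower genes. Adjusted p-values of the 46 genes in the authors' deposited table ran from 2.04e-18 for CXCL2 to 0.0485 for SLC39A4. With 3 libraries against 3, an exact permutation test of a single gene cannot give a two-sided p under 0.1.

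**Figure D2:**
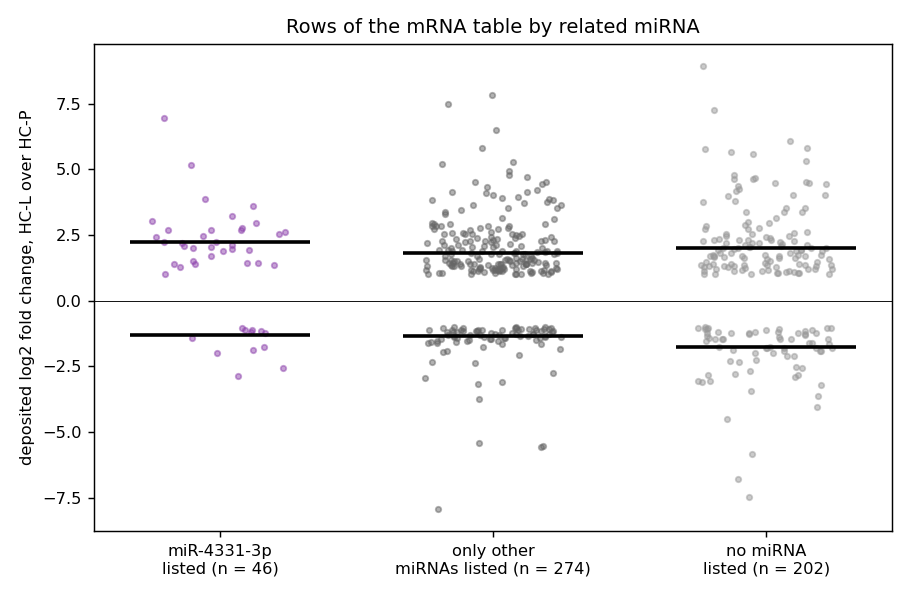
Deposited log2 fold change of HC-L over HC-P for each gene of the authors' table, split by whether miR-4331-3p (46 genes), only other miRNAs (274) or no miRNA (202) is listed as related. Points are genes and thick lines are medians of the higher and of the lower genes, which for miR-4331-3p lie at 2.22 and -1.31. No gene lies close to 0, since the table holds called genes only.

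In the accounts that follow, values are normalised read counts in the order of the columns headed HC1, HC2 and HC3 for each muscle. Log2 ratios are those of the HC-L mean over the HC-P mean, with the range obtained when each of the 6 libraries was left out in turn.

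Several of the genes that were higher in HC-L encode secreted signals or their receptors and relays. CXCL2, a chemokine that attracts neutrophils, had 489, 379 and 398 in HC-L, against 65.4, 79.3 and 49.8 in HC-P. Its log2 ratio of 2.70 stayed between 2.54 and 2.87 with any library left out, one of the steadiest differences among the 46. AREG, which encodes the EGF receptor ligand amphiregulin, had 104, 93.1 and 9.98 in HC-L, against 7.16, 4.23 and 2.72 in HC-P. The HC3_L library was far below the other HC-L libraries for AREG and close to the highest HC-P library, and the log2 ratio of 3.88 ran from 3.45 to 4.39. CXCL2 belongs to a family of closely similar chemokine genes, and the sources used here do not say how reads shared between copies were assigned.

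CLCF1, a cytokine that signals through the ciliary neurotrophic factor receptor, had 63.3, 39.9 and 59.0 in HC-L, against 9.85, 12.7 and 5.43 in HC-P. All 3 HC-L libraries were above all 3 HC-P libraries, with a log2 ratio of 2.54. FGF6, a fibroblast growth factor found mainly in skeletal muscle in the mouse, had 449.9, 110.1 and 63.5 in HC-L, against 54.6, 53.9 and 33.5 in HC-P. Here the HC1_L library set the size: the log2 ratio was 2.13 with it and 0.87 without it. RASD1, a Ras-like protein induced by dexamethasone, had 611, 675 and 182 in HC-L, against 72.5, 82.5 and 69.7 in HC-P. HC3_L was again the lowest HC-L library for RASD1, though still above every HC-P library. MAP3K8, a kinase that acts upstream of ERK, TLR9, the endosomal receptor for unmethylated DNA, and GIPC2, a PDZ-domain adaptor, were also higher. GIPC2 had 113, 144 and 79.9 in HC-L, against 8.95, 9.52 and 9.05 in HC-P, and its log2 ratio of 3.62 stayed between 3.40 and 3.81. MAP3K8 averaged 127 ± 24.9 in HC-L and 33.6 ± 19.1 in HC-P, and TLR9 averaged 47.0 ± 20.3 in HC-L and 14.4 ± 3.34 in HC-P (SD, n = 3 each).

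ADIPOQ, which encodes adiponectin, a hormone secreted by fat cells, had 141, 682 and 338 in HC-L, against 59.1, 121 and 110.4 in HC-P. The lowest HC-L value was close to the highest HC-P value. The log2 ratio was 2.0 with all libraries and 1.31 without HC2_L. The 3 other adipocyte markers in the table, CIDEC, PLIN1 and LEP, were all higher in HC-L too, and their summed values were 266, 1136 and 468 in HC-L, against 55.5, 197 and 187 in HC-P. FABP4, the fifth marker of the list, was not among the table's genes. HC2_L was the highest library and HC1_P the lowest for ADIPOQ and for that sum alike, and their part in the ADIPOQ result was not tested. In bulk tissue, fewer cells of a type and less RNA per cell cannot be told apart. Of the 17 genes of the longer list for adipocytes and fat synthesis, 9 were in the table, of which 8 were higher in HC-L and PNPLA2, a triglyceride lipase, was lower. ADIPOQ was the only gene of that list annotated to miR-4331-3p.

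A second set works in protein folding, the stress response and the control of translation and transcription. HSPA8, the constitutive member of the HSP70 chaperones, had 46519, 72005 and 34805 in HC-L, against 17421, 23422 and 19361 in HC-P, with a log2 ratio of 1.35 and a range of 1.02 to 1.56. DNAJA1, an HSP40 co-chaperone that works with HSP70 proteins, had 7214, 18527 and 5809 in HC-L, against 1799, 2705 and 2337 in HC-P. For both chaperones HC2_L was the highest library and HC3_L the lowest of the HC-L group. PPP1R15A, the stress-induced subunit that directs a phosphatase to the initiation factor eIF2 alpha, had 13892, 7885 and 4309 in HC-L, against 2036, 1343 and 1354 in HC-P. Its log2 ratio was 2.46, between 1.95 and 2.79 with a library left out. EIF4E, the protein that binds the messenger cap, had 1406, 2386 and 2562 in HC-L, against 751, 889 and 786 in HC-P. Unlike the chaperones and PPP1R15A, EIF4E was not lowest in HC3_L.

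MAFF, a small Maf transcription factor, had 5293, 2972 and 3156 in HC-L, against 2605, 784 and 969 in HC-P. HC1_P was far above the other HC-P libraries, and the log2 ratio of 1.39 became 2.12 without it. NAB2, a corepressor of EGR transcription factors, averaged 245 ± 113 in HC-L and 85.0 ± 36.2 in HC-P, and NABP1, which binds single-stranded DNA in the DNA damage response, averaged 975 ± 255 in HC-L and 247 ± 73.1 in HC-P (SD, n = 3 each). The list of immediate early and stress genes had 11 of its 22 genes in the table, all higher in HC-L, and HSPA8 was the only one annotated to miR-4331-3p. The other 10, among them FOS, EGR1, DUSP1, BAG3 and DNAJB1, had summed values of 126899, 139775 and 64715 in HC-L, against 26937, 28327 and 22378 in HC-P. Within HC-L that sum was lowest in HC3_L. HSPA8, DNAJA1, PPP1R15A and NAB2 were also lowest in HC3_L, while MAFF was lowest in HC2_L and EIF4E and NABP1 were lowest in HC1_L. Of the 322 genes higher in HC-L that do not list miR-4331-3p, 188 were lowest in HC3_L. Whether the stress genes had a part in the values of these genes was not tested.

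**Figure D3:**
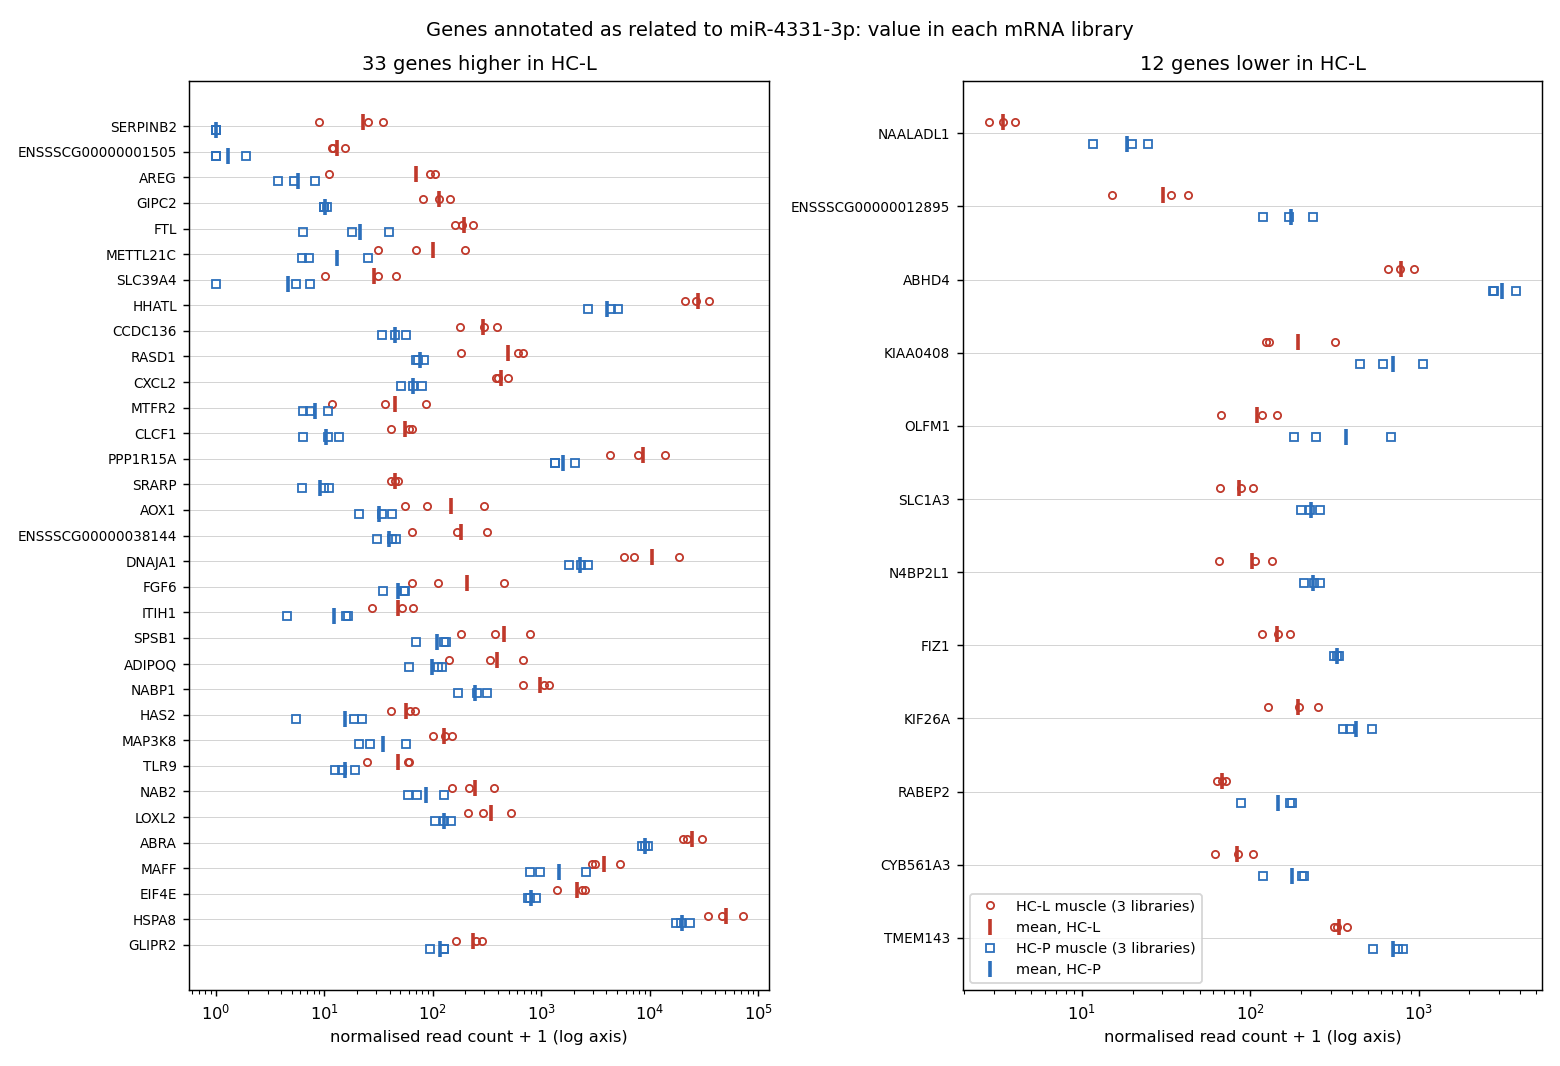
Normalised read count plus 1 of 45 of the 46 genes on a log axis, with 33 of the genes higher in HC-L in the left panel and the 12 lower genes in the right panel. Circles are the 3 HC-L libraries, squares the 3 HC-P libraries and vertical ticks the group means. In every row the circles and the squares are fully separated, and the gap is narrow for ADIPOQ and FGF6 and wide for GIPC2 and CXCL2.

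Genes with known work in striated muscle formed a further set, given here with a gene known only by a myosin domain. Those described here were higher in HC-L. HHATL, a relative of the Hedgehog acyltransferase found mainly in heart and skeletal muscle, had 27013, 35579.7 and 21024 in HC-L, against 4383, 5070.4 and 2687 in HC-P. Its log2 ratio of 2.78 stayed between 2.56 and 2.98, and the authors' deposited table gives an adjusted p of 7.73e-16. ABRA, an actin-binding protein of the sarcomere, had 20499, 30331 and 22333 in HC-L, against 8541, 9605 and 9082 in HC-P. ABRA varied little within HC-P, and its log2 ratio of 1.43 ran from 1.24 to 1.54. METTL21C, a lysine methyltransferase of proteins expressed in muscle in the mouse, had 69.3, 30.2 and 197 in HC-L, against 6.27, 5.29 and 24.4 in HC-P. The HC2_L value of METTL21C was close to the HC3_P value, and the log2 ratio of 3.04 ran from 2.05 to 4.10. ENSSSCG00000038144, described in the deposited table by a myosin motor domain, had 63.3, 168 and 315 in HC-L, against 29.5, 41.2 and 45.3 in HC-P. None of the genes in the lists for slow fibre contraction, fast fibre contraction, respiration, fatty acid oxidation or myogenic factors was annotated to miR-4331-3p, although 2, 2, 6, 4 and 3 of those lists' genes were in the table.

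LOXL2, HAS2, ITIH1 and SERPINB2, which act on the extracellular matrix or on the proteases around it, were higher in HC-L too. LOXL2, which crosslinks collagen and elastin, had 209.9, 288 and 525 in HC-L, against 103, 126 and 146 in HC-P. HC3_L was the highest library for LOXL2, and the log2 ratio of 1.45 fell just short of 1 when it was left out. HAS2, which makes hyaluronan, averaged 55.9 ± 14.2 in HC-L and 14.7 ± 8.95 in HC-P, and ITIH1, a heavy chain that is attached to hyaluronan, averaged 47.1 ± 19.2 in HC-L and 11.3 ± 6.65 in HC-P (SD, n = 3 each). SERPINB2, plasminogen activator inhibitor 2, had 8.03, 24.2 and 33.6 in HC-L and was listed at 0 in all 3 HC-P libraries. No fold is given for SERPINB2 against a group listed at 0, and its adjusted p in the authors' deposited table was 0.000188.

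The remaining higher genes are of mixed function. FTL, the light chain of the iron store ferritin, had 233, 161 and 185 in HC-L, against 5.37, 16.9 and 38.9 in HC-P. The HC-P libraries of FTL differed among themselves by up to 7.25 times, while the HC-L libraries lay close together, and the log2 ratio of 3.24 ran from 2.79 to 4.11. FTL, HSPA8 and EIF4E have near-identical processed copies in mammalian genomes, so the counts of these genes are uncertain where reads were shared. SLC39A4, an importer of zinc, had 30.1, 44.7 and 9.08 in HC-L, against 0, 6.34 and 4.53 in HC-P, and it was the gene with the highest adjusted p of the 46. ENSSSCG00000001505, described by a prefoldin domain, had between 10.9 and 14.5 in HC-L, against 0, 0 and 0.905 in HC-P. Since 0.905 was the smallest value above 0 in the HC3_P column, the HC-P level of ENSSSCG00000001505 rests on the smallest step of that library.

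AOX1, an aldehyde oxidase, had 298, 54.4 and 88.0 in HC-L, against 19.7, 32.8 and 40.7 in HC-P. The log2 ratio of AOX1 was 2.24 with all libraries and 1.20 without HC1_L. MTFR2, a regulator of mitochondrial fission, had 35.1, 85.9 and 10.9 in HC-L, against 9.85, 6.34 and 5.43 in HC-P, with a log2 ratio of 2.61, or 1.68 without HC2_L. SPSB1, an adaptor of a ubiquitin ligase, had 377, 181 and 790.4 in HC-L, against 132, 68.7 and 127 in HC-P, with a log2 ratio of 2.04, or 1.36 without HC3_L. The size for each of these genes was thus set in good part by a single HC-L library, and it was not the same library. CCDC136, a coiled-coil protein, averaged 287 ± 106 in HC-L and 44.0 ± 11.2 in HC-P. SRARP, a protein associated with steroid receptors, averaged 43.8 ± 3.64 in HC-L and 8.07 ± 2.46 in HC-P, and GLIPR2, a protein of Golgi membranes, averaged 233 ± 61.8 in HC-L and 116 ± 19.6 in HC-P (SD, n = 3 each). GLIPR2 had the smallest difference of the 34, with a log2 ratio of 1.01, which was 0.96 without HC2_L, 0.84 without HC3_L and 0.88 without HC2_P.

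The 12 genes that were lower in HC-L share no single function. ABHD4, a lipase of N-acyl phospholipids, had 774, 654 and 939 in HC-L, against 2782, 2804 and 3799.6 in HC-P. Its log2 ratio of -1.99 stayed between -2.13 and -1.82, and its adjusted p of 4.25e-13 in the authors' deposited table was the smallest of the 12. NAALADL1, a peptidase related to glutamate carboxypeptidase, had 3.01, 2.42 and 1.82 in HC-L, against 18.8, 10.6 and 23.5 in HC-P, the most negative log2 ratio at -2.87. Each HC-L value of NAALADL1 lies within a few of the smallest steps of its column. ENSSSCG00000012895, described by a C2 domain, had 14.1, 32.7 and 41.7 in HC-L, against 235, 168 and 119 in HC-P. KIAA0408, a protein without an assigned function, had 129, 123 and 319 in HC-L, against 450.3, 611 and 1059 in HC-P. HC3_L was the highest of its group for KIAA0408 and for ENSSSCG00000012895, which brought both closer to the HC-P values. OLFM1, a secreted glycoprotein known from the nervous system, had 144, 116 and 66.2 in HC-L, against 681, 244 and 181 in HC-P. The log2 ratio of OLFM1 was -1.76 with all libraries and -0.97 without HC1_P.

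SLC1A3, a glutamate transporter, had 103, 65.3 and 87.1 in HC-L, against 199.6, 258 and 224 in HC-P. The log2 ratio of SLC1A3 was -1.41. FIZ1, a zinc finger protein that binds the FLT3 receptor in the mouse, had 116, 145 and 171 in HC-L, against 336, 312 and 327 in HC-P, with nearly equal values among the HC-P libraries. N4BP2L1, a protein of little known function, had 105, 134 and 64.4 in HC-L, against 237, 259 and 207 in HC-P. KIF26A, an unconventional kinesin, had 127, 194 and 252 in HC-L, against 526, 388 and 357 in HC-P. RABEP2, an effector of the endosomal GTPase RAB5, had 62.3, 66.5 and 70.8 in HC-L, against 87.7, 170.2 and 176 in HC-P. The HC1_P value of RABEP2 lay much closer to the HC-L values than to the other HC-P values. CYB561A3, a ferric reductase of lysosomes, averaged 82.1 ± 21.1 in HC-L and 176 ± 49.9 in HC-P, and TMEM143, a protein of mitochondria, averaged 338 ± 32.4 in HC-L and 700.5 ± 144 in HC-P (SD, n = 3 each). Some of these differences were near the smallest that the table holds, and single libraries took them under an absolute log2 ratio of 1. N4BP2L1 was at -0.97 without HC3_L, KIF26A at -0.93 without HC1_L and -0.96 without HC1_P, and RABEP2 at -0.99 without HC2_P and -0.96 without HC3_P. CYB561A3 was at -0.92 without HC2_L, -0.97 without HC1_P and -0.99 without HC3_P, and TMEM143 at -0.94 without HC1_P and -0.99 without HC2_P. No gene changed sign, which groups without overlap fix beforehand.

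**Figure D4:**
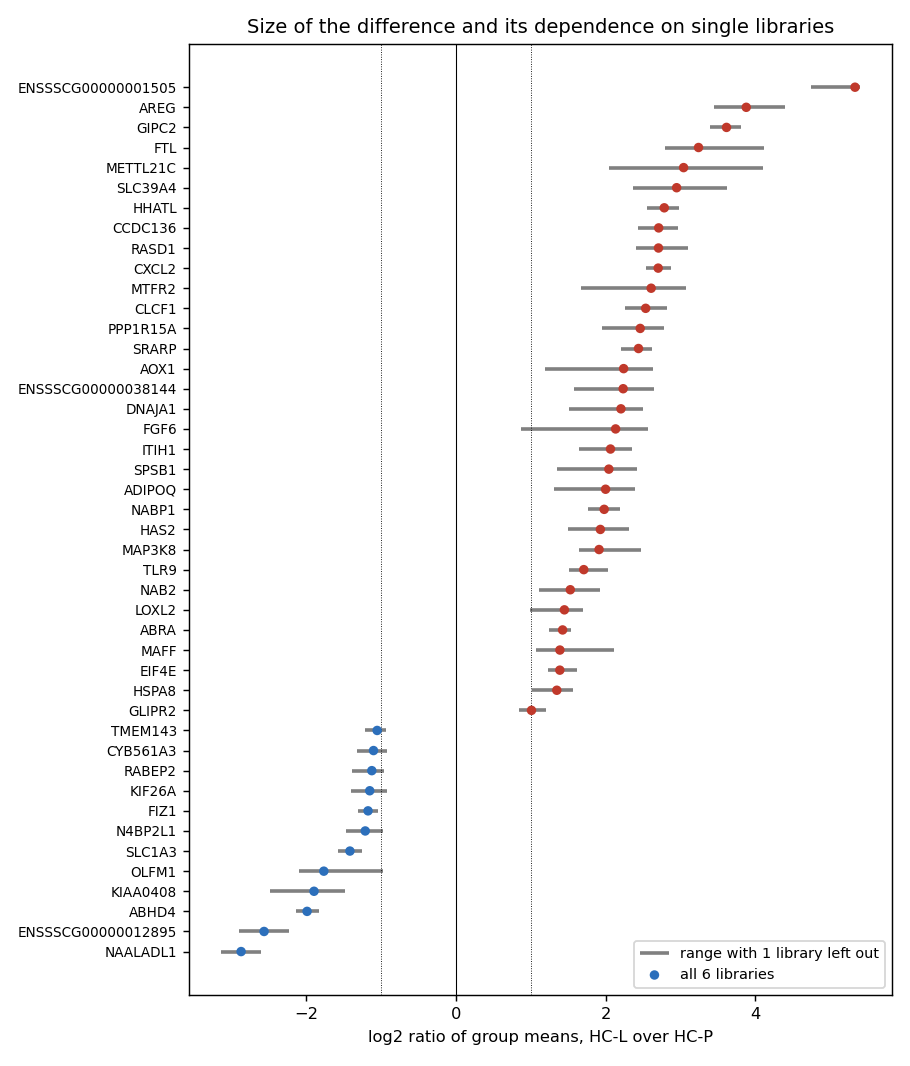
Log2 ratio of the HC-L mean over the HC-P mean for 44 of the 46 genes, with bars for the range when each of the 6 libraries is left out. SERPINB2 is not drawn because it was listed at 0 in HC-P, and the bar of ENSSSCG00000001505 leaves out the case without HC3_P, where its HC-P values are all 0. No bar crosses 0, which groups without overlap fix beforehand. Dotted lines mark log2 ratios of -1 and 1, and the bar of FGF6 reaches down to 0.87.

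Within the HC-L group, the libraries did not move as a block. Among the 34 higher genes the highest HC-L value came from HC1_L for 11, from HC2_L for 15 and from HC3_L for 8. The lowest came from HC3_L for 17 of the 34, against the 188 of 322 given above for the other higher genes. The highest HC-L value of the 34 genes was a median of 2.32 times the lowest, against 2.02 times for the other higher genes. Within HC-P the corresponding medians were 1.81 and 1.78.

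The annotation itself varied among the 46 genes. miR-4331-3p was named once for 30 of them, more than once for 16, and 3 times for CXCL2, ADIPOQ and CYB561A3. It was listed for as many genes as novel_432, a predicted miRNA that carries only the authors' number, which placed the pair sixth among 244 distinct miRNAs in the field. The most listed was novel_405, with 113 genes. The 46 genes listed 130 other miRNAs, and novel_405 was among them for 19 genes (41.3%). Its 113 genes are out of all 522, of which 202 listed no miRNA and so could not list it. A median of 6.5 distinct miRNAs was listed per gene, against 5 for the 274 genes annotated with other miRNAs only. A longer list is more likely to hold any given miRNA, so the rule itself favours genes with longer lists. The highest number was 32, for RABEP2. For 5 genes, KIAA0408, ABRA, HAS2, EIF4E and NABP1, no other miRNA was listed, and all of these except KIAA0408 were higher in HC-L. At the other end, 17 genes listed at least 10 other miRNAs.

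The share of genes that were higher in HC-L differed with the number of miRNAs listed. It was 15 of 18 for the genes with 1 to 4 distinct miRNAs, 10 of 11 for those with 5 to 10, and 9 of 17 for those with 11 to 32. Among genes annotated with other miRNAs only, it was 102 of 132, 52 of 81 and 37 of 61 for the same numbers. The share was thus lowest in the most heavily annotated genes in both sets. Of the 12 lower genes, 8 were in the class with 11 to 32 miRNAs. Among the 12 miRNAs listed for at least 8% of the table's genes, the share higher in HC-L ran from 55.3% to 76.1%, and 2 of them had a larger share than miR-4331-3p. These sets share genes and are given as a description.

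**Figure D5:**
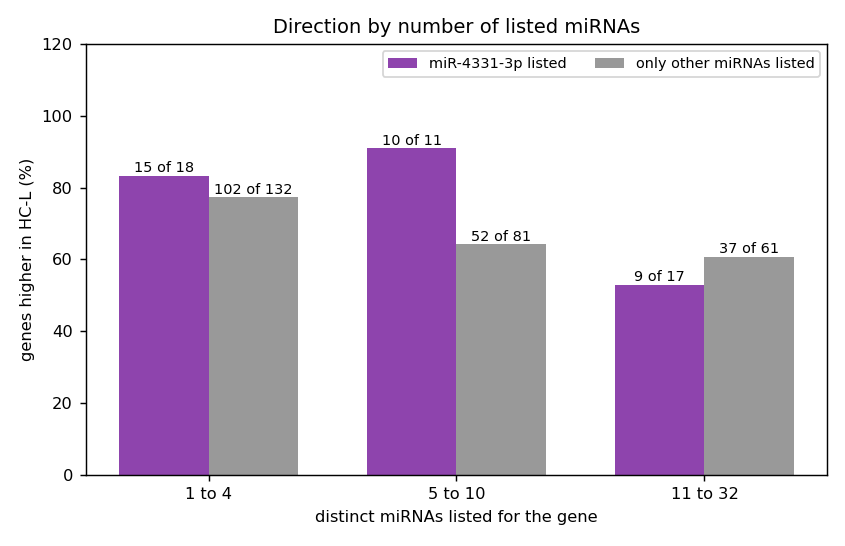
Percent of genes higher in HC-L by the number of distinct miRNAs listed for the gene, for genes that list miR-4331-3p (left bar of each pair) and genes that list only other miRNAs (right bar). Numbers above the bars are genes higher out of all genes in the class. In both sets the bar for 11 to 32 miRNAs is the lowest, at 9 of 17 and 37 of 61.

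Set against the other miRNAs that the field names, miR-4331-3p was common in exosomes and rare in tissue. By mean TPM it ranked 31 of 244 in exosomes and 152 of 244 in tissue. Only 8 of the 46 genes listed another miRNA with a higher mean in exosomes, but 35 listed one with a higher mean in tissue. In 15 genes another listed miRNA averaged at least 100 TPM in tissue. CLCF1, for example, also listed miR-92a, at a mean of 1054 TPM over the 6 tissue libraries, and ENSSSCG00000012895 also listed miR-423-5p, at 1508 TPM. The opposite strand product, miR-4331-5p, was listed for none of the 46 genes.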

How the data were processed

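The annotation that picks the genes uses no expression value, but the choice of miR-4331-3p, and of the lists used to describe its genes, was made with earlier results of these data known. The deposited mRNA table gives a signal per gene and library, which the values show to be normalised read counts: within each of its 6 columns, all values were whole multiples of the smallest one to within 0.02 steps. Beside these the authors deposited, per gene, their log2 fold change and its p-value, raw and adjusted, and only called genes are in the table. Their aligner, genome build, normalisation and test, and the way miRNAs were related to genes, are not stated in the sources at hand. Column headers gave the muscle, HC-L or HC-P, but were not tied to single samples. No count test was run on the mRNA values, which are only described: every gene in the table had already passed the authors' test, and the genes that did not pass, from which a fit would estimate the spread and the scaling, are not among its genes.

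The deposited small RNA table gives a read count per miRNA and library and a TPM value by the authors, which is the count scaled to a common total of miRNA reads. Counts were fitted in R 4.3.3 with edgeR 4.0.16 (TMM, filterByExpr, quasi-likelihood test, all 12 libraries, a coefficient per group), which kept 252 miRNAs; Benjamini-Hochberg adjustment ran over these. DESeq2 1.42.0 was an alternative. The fit was also run on simulated data, and no result given here rests on that run. Intervals are exact binomial at 95% and cover counting error only. Python 3.11.15 with pandas 2.3.3, NumPy 2.4.6 and SciPy 1.17.1 did the rest. Every gene with a symbol is named, except 1 that is not reported here and is left out of the plots of single genes; values in each library are given at least for the 10 genes with the largest positive and the 10 with the most negative deposited log2 fold change, those with the highest means and those in a list. Same-numbered HC-L and HC-P libraries deviated together. Correlations over miRNAs were 0.168, 0.128 and 0.230 in tissue and 0.342, 0.211 and 0.295 in exosomes. Libraries of different numbers were not compared, so these values cannot show that a number marks the same animal. The main fit used no pairing, and pairing by number was an alternative.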

Additional observations from a re-analysis of the deposited data

How the results depend on the processing

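The share of genes higher in HC-L was 73.9% and lay between 68.6% (genes with a mean value of at least 50) and 85.0% (genes with at most 5 related miRNAs), and it was 80.0% for the 5 genes with no other miRNA. Of the genes annotated with other miRNAs only, 77.3% of those listing 1 to 4 miRNAs were higher. The median log2 ratio of the higher genes was 2.22. It was 2.09 for genes with a mean of at least 50, 2.05 as a mean of log2(value + 1), 1.68 for genes with no other miRNA, and 2.28 to 2.41 with a library left out. The median of the lower genes was -1.31. It was -1.21 for genes with a mean of at least 50, -1.89 for the sole gene with no other miRNA, -1.41 for genes with at most 5 related miRNAs, and -1.42 to -1.29 with a library left out. The cause of these shifts was not tested. Of 314 recomputed values for single genes, 16 went under an absolute log2 ratio of 1, all with a library left out. None changed sign, which groups without overlap fix beforehand. The change for MAFF, which moved by over 1.5 times, was upward, to 2.12 without HC1_P.

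For miR-4331-3p, 79 of 80 recomputed values kept their direction and their side of the threshold. The exception was HC-L against HC-P exosomes, with a log2 fold change of -2.10 in DESeq2. With the replicate number as a block, HC-L over HC-P was 1.17 in tissue (edgeR adjusted p = 0.631) and -1.91 in exosomes (adjusted p = 0.40), and exosome over tissue was 5.91 in HC-L and 8.99 in HC-P, so the block changed no call. Paired by the numbers in the headers of the mRNA columns, 34 of the 46 genes (73.9%) were higher in HC-L in all 3 pairs and 12 were lower in all 3, which groups without overlap fix beforehand. Of all 522 genes, 98.5% had 1 direction in all 3 pairs. The planned edgeR fit on reads recovered from the mRNA table was not run. With 14 tissue reads of miR-4331-3p in all, depth limits every statement on its level in tissue.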

Other observations

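Among the 46 genes, some were near neighbours in the RefSeq gene order of the pig. PPP1R15A and FTL had 4 protein-coding genes between them, and CXCL2 and AREG had 3. All of these genes were higher in HC-L. Coordinates are left out because the sources at hand do not name the build of the deposited files.

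miR-4331-5p, the product of the other hairpin strand, had 6, 1 and 4 reads in HC-L exosomes and 12, 1 and 4 reads in HC-P exosomes. It had 49, 0 and 51 reads in HC-L tissue and 115, 0 and 54 reads in HC-P tissue. Exosome libraries held fewer miRNA reads in all, so these reads do not compare exosomes with tissue. In mean TPM miR-4331-5p was at 8.33 in HC-L exosomes and 4.68 in HC-L tissue. In HC-P it was at 18.7 in exosomes and 12.4 in tissue. Both exosome means were the higher ones, but they rest on 1 to 12 reads per library and no test of them is given. The gap was far smaller than for miR-4331-3p, at 60.7 against 0.437 TPM in HC-L and 297 against 0.269 TPM in HC-P. The libraries numbered 2 were at 0 in both tissues, which lowers both tissue means. A count of 0 allows up to 3 reads, which is 0.333 TPM in the HC-L tissue library numbered 2 and 0.461 TPM in the HC-P one. In tissue libraries numbered 1 and 3 the 5p product had more reads than the 3p product, and in each exosome library it had fewer.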
